A study of Mus musculus with 10 samples.

Results

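The Dlk1 to Dio3 cluster on mouse chromosome 12 was described here by its open elements, the stretches of DNA at which a peak of chromatin accessibility was listed. All peaks on chromosome 12 from 50 kb before Dlk1 to 50 kb after Dio3 were taken from the 10 deposited lists (chr12:109402485-110331097, mm10). These were 235 of 685776 peaks, and after overlapping or touching peaks of all lists were merged they formed 94 of 208827 elements. The cluster's 6 named genes lie in the order Dlk1, Meg3, Rtl1, Rian, Mirg and Dio3. A peak within 1 kb of the start was listed in at least 1 library for Dlk1, Meg3 and Dio3, and in no library for Rtl1, Rian and Mirg.

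The cluster is imprinted, which means that its genes are expressed from the chromosome of 1 parent. Dlk1, a membrane protein of the Notch ligand family, Rtl1, a gene derived from a retrotransposon, and Dio3, an enzyme that inactivates thyroid hormone, are expressed mainly from the paternal chromosome. Meg3, a long noncoding RNA, Rian, a host of small nucleolar RNAs, and Mirg, a host of microRNAs, are expressed from the maternal chromosome. The imprint is set by a DNA methylation mark that lies between Dlk1 and Meg3. The maternal noncoding genes are known to be silenced in some induced pluripotent stem cell lines, and ascorbic acid is known to protect them during reprogramming. Accessibility as measured here does not separate the parental chromosomes, and DNA methylation and RNA were not analysed here.

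ATAC-seq, which uses a transposase to cut accessible chromatin, was done with 50000 cells per library and 2 libraries at each of 5 stages. MEF were mouse embryonic fibroblasts in fibroblast medium without doxycycline. DAY3, DAY6 and DAY9 were the same kind of fibroblasts after 3, 6 and 9 days in stem cell medium with 1 µg/ml doxycycline and 50 µg/ml ascorbic acid. All cells were of the strain C57BL/6 x 129. MEF and the cells of all 3 days carried the inducible reprogramming cassette OKSM (Oct4, Klf4, Sox2 and Myc) in Col1a1 and the activator M2rtTA in ROSA26. ESC were the embryonic stem cell line V6.5, which is 1 line, without the cassette and without doxycycline, grown over irradiated feeder cells. Cells positive for the pluripotency marker SSEA1 were sorted at DAY6 and DAY9, and MEF, DAY3 and ESC were left unsorted, so sorting cannot be told apart from the later days. No stage was reprogrammed without ascorbic acid, so its effect on the cluster cannot be seen here.

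The lists held between 45497 (DAY3) and 88980 (ESC) peaks, and the smallest fold listed over a list's typical background lay between 2.58 (MEF replicate 2) and 3.60 (DAY6 replicate 2). Where the local background was higher, smaller folds were listed too. A missing peak therefore means that no peak was listed, not that the site was closed. The fold is the authors' own value for a peak's summit over its local background. Relative to counting noise, the DAY3 libraries differed by a ratio of 1.33 and the DAY9 libraries by 1.42, against 3.61 to 8.11 for the other same-stage pairs, so the 2 libraries of DAY3, and those of DAY9, were averaged and 8 samples were tested. Libraries of different stages differed by ratios from 3.96 to 31.5. The MEF pair (5.56) and the ESC pair (8.11) thus differed more than some libraries of different stages. Nothing in the labels says that the libraries of a stage came from separate cultures, so p-values measure the spread between these samples, which may be technical. As a check of the cell labels, a peak lay at the start of 7 of 8 fibroblast markers in both MEF libraries and of 1 of 8 in both DAY9 libraries. Both ESC libraries had one at 3 of 8 fibroblast markers and at 10 of 10 pluripotency markers, against 1 of 10 pluripotency markers in both MEF libraries. Over all genes the shares were 33.0% in MEF, 38.5% at DAY9 and 38.1% in ESC. The counts hold for the 1 kb distance. Within 2.5 kb the fibroblast markers Prrx1 and Col3a1 had a peak in all 10 libraries, while Postn and Twist2 stayed at 2 and 5.

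The starts of Meg3, Dio3 and Dlk1 followed 3 different courses over the stages, and the 250 bases before each start are shown because the gene-start results refer to them. Sequences are from RefSeq (GRCm38.p6), plus strand, and the start itself follows the last base.
Meg3, chr12:109540746-109540995: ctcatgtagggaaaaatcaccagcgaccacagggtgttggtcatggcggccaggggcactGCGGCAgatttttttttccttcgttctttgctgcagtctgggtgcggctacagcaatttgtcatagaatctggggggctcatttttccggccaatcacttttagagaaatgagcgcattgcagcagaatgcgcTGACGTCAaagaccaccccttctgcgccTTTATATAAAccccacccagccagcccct
Dio3, chr12:110278980-110279229: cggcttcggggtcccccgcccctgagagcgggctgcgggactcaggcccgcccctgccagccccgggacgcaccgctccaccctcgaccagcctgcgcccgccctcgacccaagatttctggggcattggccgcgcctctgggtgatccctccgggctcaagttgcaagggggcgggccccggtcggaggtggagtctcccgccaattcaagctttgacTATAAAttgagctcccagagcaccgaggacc
Dlk1, chr12:109452573-109452822: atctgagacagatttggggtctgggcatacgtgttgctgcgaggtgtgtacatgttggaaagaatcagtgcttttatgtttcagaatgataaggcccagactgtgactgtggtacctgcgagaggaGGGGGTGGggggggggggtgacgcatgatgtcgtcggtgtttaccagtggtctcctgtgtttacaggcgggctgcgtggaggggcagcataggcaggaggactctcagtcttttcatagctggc
Capitals mark motif matches on either strand. In Meg3 they are GCGGCA, the reverse complement of the ZFP57 motif TGCCGC, 190 to 185 bases before the start, the cyclic AMP response element TGACGTCA 57 to 50 bases before it, and a run that holds TATAAA on both strands, 29 to 24 and 25 to 20 bases before it. In Dio3 they are TATAAA, 31 to 26 bases before the start, and in Dlk1 GGGGGTGG, a match to the KLF motif GGGNGTGG, 124 to 117 bases before it. Of 32851 RefSeq promoters of the same length, 8.68% held TGCCGC, 15.9% GGGNGTGG, 1.55% TGACGTCA and 12.4% TATAAA. The motifs TGANTCA (AP-1, in 6.75% of promoters), ATGCNAAT (octamer, 2.86%) and the CTCF core motif (0.350%) had no match in these 3 windows. TGACGTCA and TATAAA were chosen after the sequences had been seen. The Dio3 window held 21 CpG pairs, the Meg3 window 10 and the Dlk1 window 8, against a median of 6 over all promoters.

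Meg3, the noncoding RNA used as a sign of an active maternal cluster, had a peak over its start in every MEF, DAY3, DAY6 and DAY9 library and in neither ESC library. This element (chr12:109540663-109541265) covers all 250 bases printed above. Its fold was 4.00 and 2.80 in MEF, 4.29 and 4.40 at DAY3, 4.33 and 3.43 at DAY6, and 4.42 and 4.43 at DAY9. The lowest value was that of MEF replicate 2, and the DAY6 range overlapped those of MEF and DAY3. That lowest value lay under the smallest fold listed at typical background in both ESC libraries (3.35 and 2.94), and every other value lay above. The reference gives Meg3 another start, at chr12:109545398, with no peak within 1 kb in any library. The absence from ESC holds for the 1 kb distance: within 2.5 kb of a Meg3 start all 10 libraries had a peak, ESC at folds of 6.56 and 7.78, from an element inside the gene. A presence in all 8 of these libraries together with an absence from both ESC libraries was found for 74 of 49943 genes (0.148%) and for 788 elements of the whole atlas (0.377%). When only the strongest 50% of each list was kept, the Meg3 start remained in 6 libraries, without MEF replicate 2 and DAY6 replicate 2.

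Dio3, the thyroid hormone deiodinase at the far end, differed from Meg3 at MEF, DAY3 and ESC, while both starts had a peak in both DAY9 libraries. The element over its start (chr12:110278671-110279573) had no peak in MEF or DAY3 libraries and 1 in DAY6 replicate 2, with a fold of 3.68. It was listed in both DAY9 libraries at folds of 5.74 and 6.61 and in both ESC libraries at 6.44 and 4.98. Dio3os, the antisense RNA that starts within 1 kb of the same element, cannot be told apart from Dio3 here. The 4 DAY9 and ESC peaks were also among the strongest 50% of their lists.

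Dlk1, the Notch-type ligand, had a weak element inside the gene 195 bp after the start (chr12:109453018-109453804), outside the printed window. It was listed in MEF replicate 1 at a fold of 4.53, in DAY6 at 3.37 and 4.47, and in DAY9 at 3.60 and 3.82, with none in MEF replicate 2, DAY3 or ESC. The MEF libraries thus did not agree on it, and none of its 5 peaks was in the strongest 50% of its list. For genes in general, a peak at the start was listed in both libraries for 33.0% in MEF, and for 31.8%, 35.0%, 38.5% and 38.1% in DAY3, DAY6, DAY9 and ESC. Of the 6 genes of the cluster these were 1, 1, 2, 3 and 1. The 3 genes without any start peak, Rtl1, Rian and Mirg, compare with 46.7% of all genes.

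**Figure D1:**
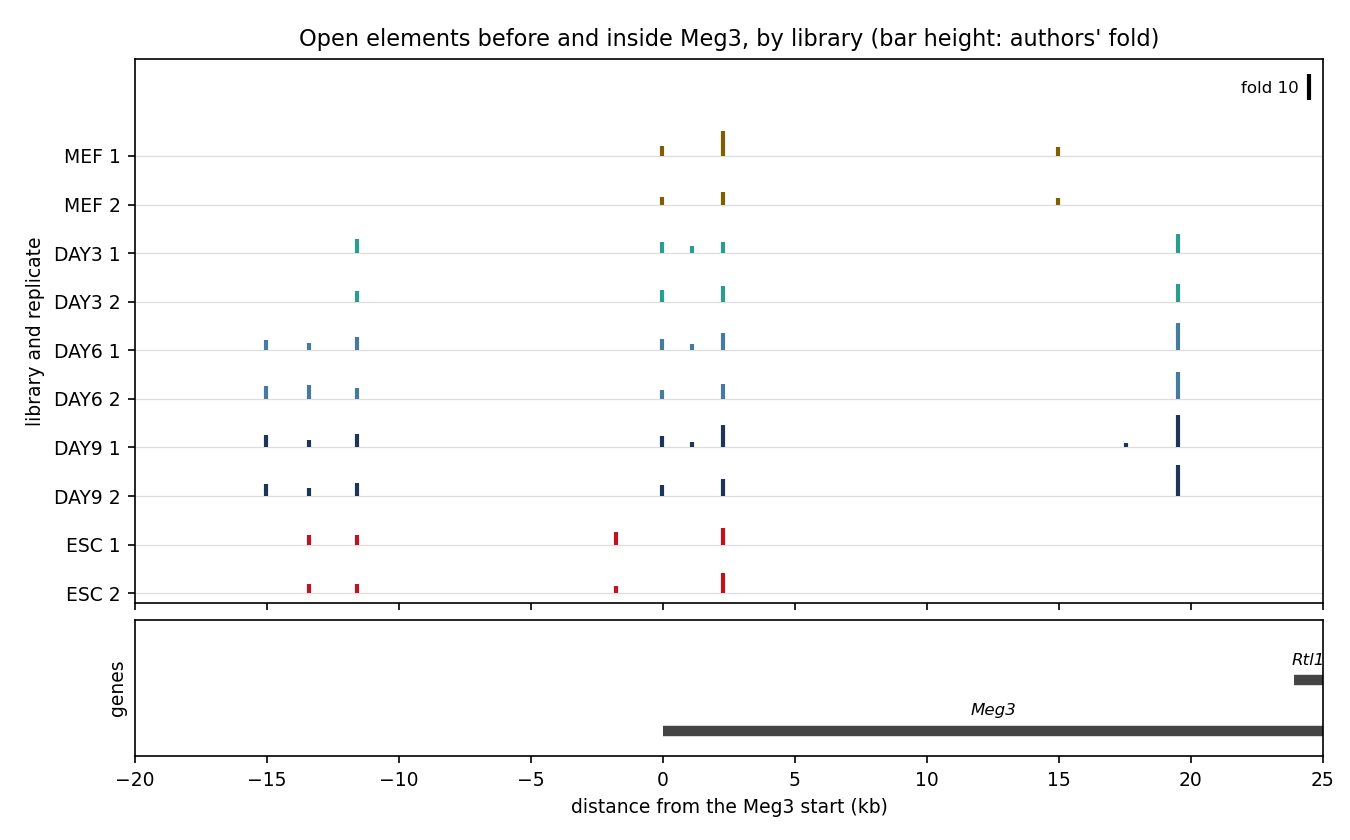
Peaks before and inside Meg3 in each library, as bars whose height is the authors' fold (the scale bar is a fold of 10), against distance from the Meg3 start in kb; the genes are drawn below. The bar at the start stops at DAY9, a bar near 20 kb is present at DAY3, DAY6 and DAY9, and the bar near 2 kb is present in all 10 libraries.

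Between Dlk1 and Meg3, the interval that holds the imprint's control region, 9 elements were found over 77.659 kb. Neither MEF library had a peak in any of the 4 that were shared by both libraries of some stage. Among the others, MEF replicate 1 had a peak in 2 and MEF replicate 2 in 1, each listed in that library alone. The bounds of the control region are not in the reference tables, so none of the elements is assigned to it. All 4 shared elements lie over the noncoding gene Gm34081. The earliest of the 4 (chr12:109528818-109530017), 10979 bp before the Meg3 start, was listed at DAY3 with folds of 5.31 and 4.18, at DAY6 with 4.98 and 4.31, at DAY9 with 5.23 and 5.22, and in ESC with 3.82 and 3.47. It was thus the one with a peak in every reprogramming and ESC library. Its neighbour (chr12:109527374-109527814), 13182 bp before the start, came in from DAY6, with folds of 2.97 and 5.37 at DAY6, 2.71 and 2.96 at DAY9, and 3.91 and 3.44 in ESC. The next (chr12:109525629-109526265) was listed at DAY6 with 4.03 and 4.86 and at DAY9 with 4.81 and 4.60, and not in ESC. The last (chr12:109539044-109539418), 1578 bp before the Meg3 start, was listed in ESC alone, with folds of 4.97 and 2.85. In the full lists ESC therefore had a peak just before Meg3 and none over its start, and the reprogramming days had the reverse. The contrast rests on a weak element: in lists of equal length, and in the strongest 50%, this last element was left in 1 library. The one 13182 bp before the start was also left in 1 library under both. The earliest was left in 6 and 4 libraries, and the one not listed in ESC in 4 and 3.

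Inside Meg3, 3 elements with different courses were shared by both libraries of a stage, beside the start. Whether they lie in exons or introns was not analysed here. The first (chr12:109542709-109543840), about 2.28 kb into the gene, was listed in all 10 libraries. Its folds were 9.66 and 4.85 in MEF, 4.15 and 5.97 at DAY3, 6.74 and 5.77 at DAY6, 8.57 and 6.77 at DAY9, and 6.56 and 7.78 in ESC, so the stages overlapped. A peak in all 10 libraries was found for 3 of the 94 elements, against 7.35% of the atlas. The second (chr12:109555774-109556149) was listed in MEF alone, at folds of 3.64 and 2.57. The third (chr12:109559912-109561068), 19.5 kb into the gene, was listed on the reprogramming days alone. Its folds were 7.55 and 6.77 at DAY3, 10.6 and 10.4 at DAY6, and 12.6 and 12.2 at DAY9. They were higher on each later day, with no overlap between the days. It was absent from both MEF and both ESC lists, a course shared by 3519 elements of the atlas (1.69%). A weaker element 816 bp after the Meg3 start (chr12:109541812-109542351) was listed in 1 library each of DAY3, DAY6 and DAY9, at folds between 2.1 and 2.7.

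Rian, the small nucleolar RNA host, had elements within the gene, not at its start. The next 4 elements are named because they lie in or beside genes of the cluster, and they were chosen after their values had been seen. One in Rian (chr12:109606119-109606797) was listed at DAY6 with folds of 5.78 and 4.86 and at DAY9 with 5.88 and 3.48, in no other library. It also lies 1701 bp past the nearer end of Rtl1, so at a distance of 2.5 kb it would count for both genes. One further in Rian (chr12:109626817-109627405) was listed in MEF alone, at 6.10 and 4.61.

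The reference held 61 microRNA genes between Dlk1 and Dio3, of which 4 overlapped an element and 12 lay within 1 kb of one. The 3 mature sequences shown, from RefSeq, are examples from the microRNAs within 1 kb of the elements described next, with the seed (bases 2 to 8) in capitals.
mmu-miR-376c-5p: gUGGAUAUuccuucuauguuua
mmu-miR-376b-5p: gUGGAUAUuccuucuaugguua
mmu-miR-136-5p: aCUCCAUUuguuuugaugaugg
The first 2 share the seed UGGAUAU, 1 of 10 seeds found in 2 mature entries of the cluster. An element that ends 26 bp before Mir376c (chr12:109722134-109722692) was listed in both DAY9 libraries, at folds of 4.20 and 3.58, and in no other library. An element over Mir136, Mir3071 and Mir432, within Rtl1 (chr12:109594692-109595358), was listed in MEF replicate 1 at 5.08 and in ESC replicate 2 at 6.19, so at no stage in both libraries.

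Mirg, the microRNA host, had no peak at its start, but just past its end lay the element with the highest MEF folds of the cluster (chr12:109749518-109750438). It was listed in all 10 libraries, with folds of 13.7 and 9.60 in MEF, 4.44 and 6.43 at DAY3, 6.51 and 6.91 at DAY6, 4.56 and 4.90 at DAY9, and 7.38 and 4.18 in ESC. Both MEF values lay above all others. Of the 3 elements listed in all 10 libraries, the remaining one (chr12:109958510-109959166) lay 417.8 kb past the Meg3 start, with folds between 4.18 and 11.4, both from ESC.

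The gene-poor 529.771 kb between Mirg and Dio3 held 46 of the 94 elements and the highest folds of the whole cluster. Its leading element (chr12:109948027-109949116), 407.6 kb past the Meg3 start, was absent from MEF and listed in every other library. Its folds were 9.44 and 9.80 at DAY3, 13.9 and 15.1 at DAY6, 12.7 and 13.4 at DAY9, and 9.12 and 7.19 in ESC. By deposited fold it was thus highest at DAY6 and lowest in ESC, with no overlap between the days. The median fold of the whole list was also higher at DAY6 (5.16 and 5.65) than at DAY9 (4.44 and 4.42). The order of DAY6 and DAY9 is therefore description only. The MEF-only element with the highest fold in a single library (chr12:110145208-110146037) lay 604.6 kb past the Meg3 start, with folds of 12.6 and 4.69. In MEF replicate 2 another MEF-only element (chr12:110122720-110123391) was stronger, with folds of 7.93 and 7.63 in the MEF libraries. At the other side of the cluster, 28744 bp before Dlk1, an element (chr12:109423408-109424079) was absent from MEF and DAY3, listed in DAY6 replicate 2 at 5.11, at DAY9 at 6.00 and 6.57, and in ESC at 12.5 and 7.12. Both ESC values exceeded those of the days.

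**Figure D2:**
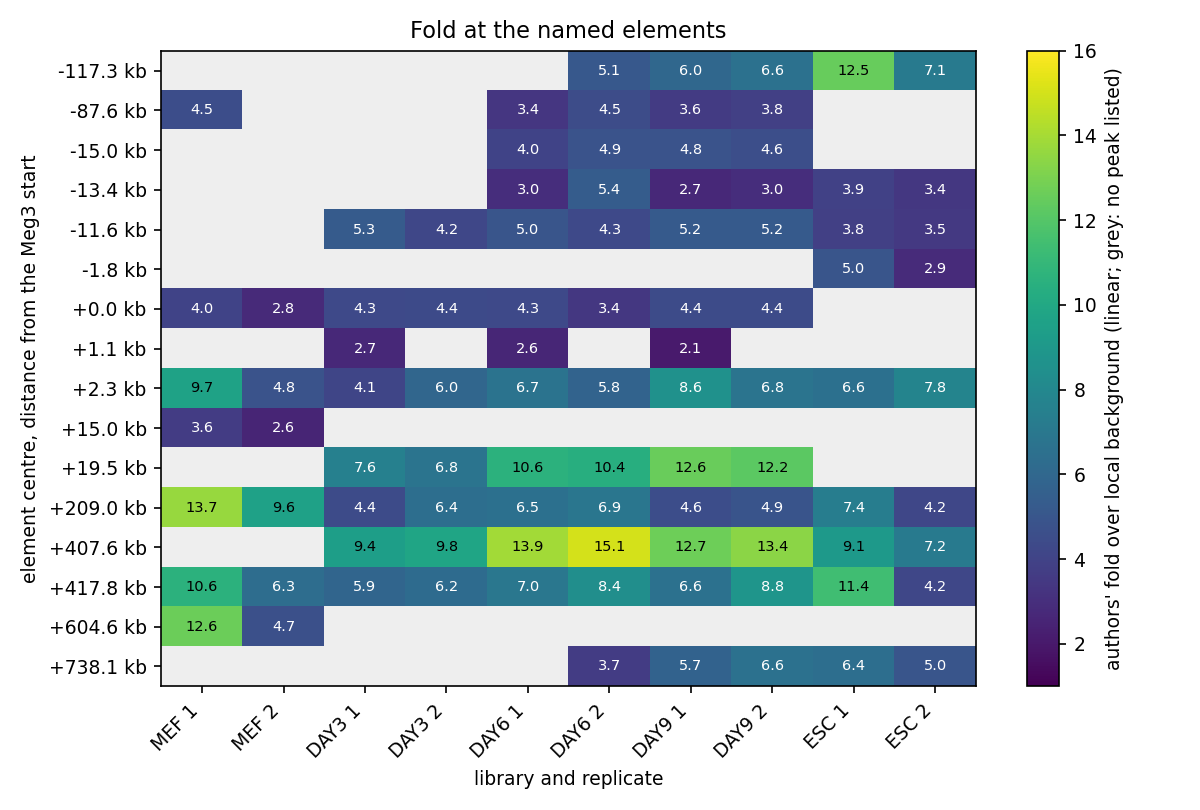
Authors' fold at the 16 named elements (rows, by distance of the centre from the Meg3 start) in the 10 libraries (columns); grey cells had no peak listed. Rows absent from MEF and present on the days, such as those 19.5 and 407.6 kb past the Meg3 start, stand beside rows listed in MEF alone.

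By pattern over the stages, elements listed in MEF alone, in both of its libraries, made up 15 of the 94 (16%, against 8.32% of the atlas). They fell to 4 before Dlk1, 2 between Meg3 and the end of Mirg, and 9 between Mirg and Dio3, with folds from 2.54 to 12.6. Elements listed on reprogramming days alone were 10 (10.6%, against 9.61%), and those listed in ESC alone were 4 (4.26%, against 7.91%). The elements that were in both libraries of no stage numbered 49 (52.1%, against 43.8%), and 44 were in a single library (46.8%, against 37.9%). In both libraries of a stage, 20 of the 94 elements were listed in MEF, 9 on DAY3, 14 on DAY6, 24 on DAY9 and 12 for ESC, while the shares over the atlas were 22.1%, 16.9%, 21.7%, 30.8% and 28.2%. With every list kept to the length of the shortest, the MEF-only elements were 6 and those of the days alone 6, of 47 elements then found. Without MEF replicate 1 the MEF-only elements numbered 29, and without MEF replicate 2 they numbered 26. A peak in the single MEF library left was then enough, so higher numbers follow from the looser rule.

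**Figure D3:**
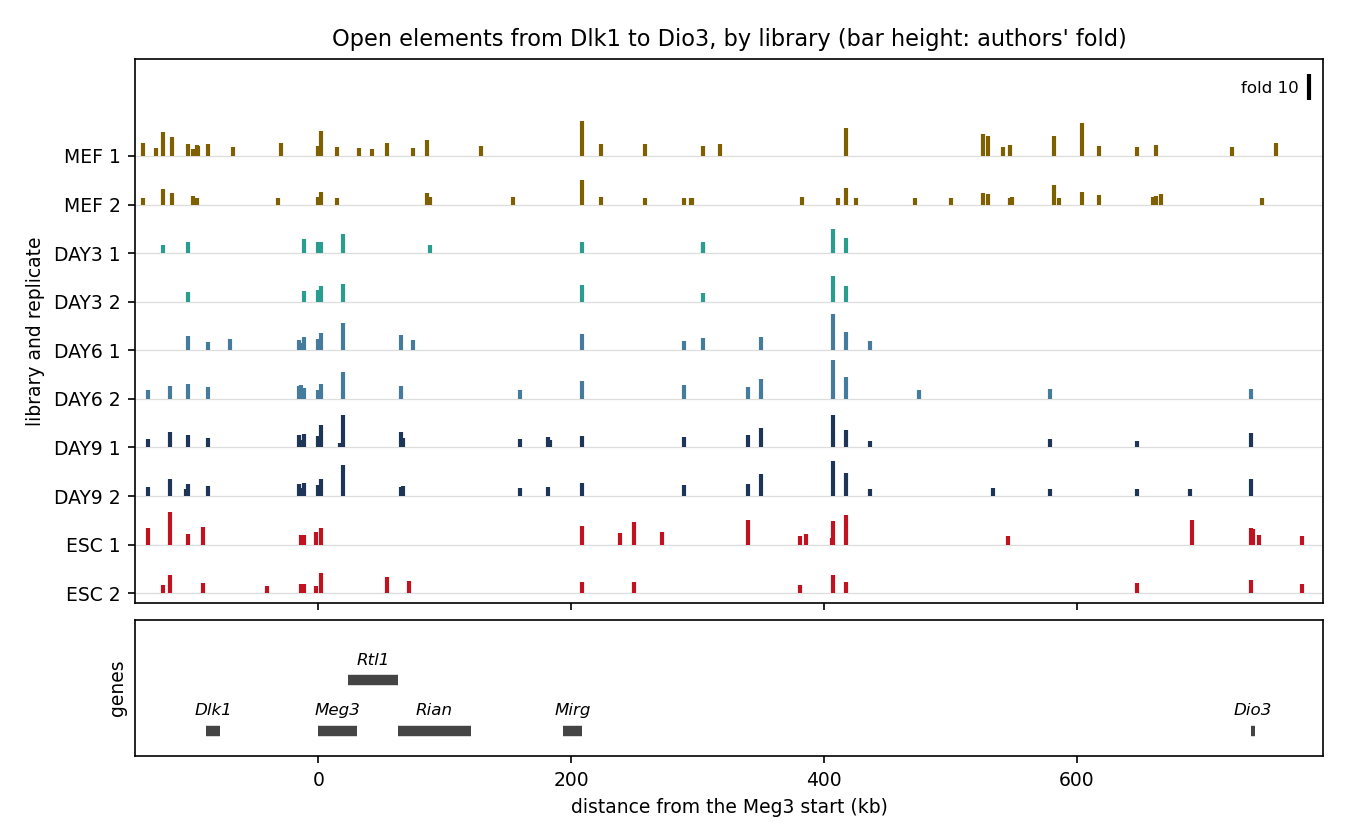
Peaks over the whole cluster in each library, as bars whose height is the authors' fold (the scale bar is a fold of 10), against distance from the Meg3 start in kb; the 6 genes are drawn below. Each bar is an element with a peak. MEF libraries have the most bars, with 37 and 36 (from 37 peaks each), and DAY3 the fewest, with 13 and 9.

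The number of peaks in the cluster differed between stages. MEF had 37 in each library, DAY3 13 and 9, DAY6 19 and 21, DAY9 28 and 27, and ESC 25 and 19. The means were 20 ± 1.41 at DAY6 (SD, n = 2) and 22 ± 4.24 in ESC (SD, n = 2), and 11.0 and 27.5 at DAY3 and DAY9, each counted as 1 sample. The share of the spread that lay between stages was 96.5%, and 6 of the 420 possible groupings gave at least that share (p = 0.0143, exact permutation test). List length also differed between stages: the ESC lists were the longest and the DAY3 lists the shortest. Over the reprogramming days it rose along with these numbers, from 45766 and 45497 peaks at DAY3 to 77787 and 78308 at DAY9. The MEF lists, with 74444 and 64295 peaks, were shorter than those of DAY9 and ESC. Per 10000 peaks of the list, MEF had 4.97 and 5.75, DAY3 2.84 and 1.98, DAY6 2.92 and 3.56, DAY9 3.60 and 3.45, and ESC 2.89 and 2.14. MEF thus stayed above every other library, and DAY3 and ESC overlapped. The share between stages was 92.8% (exact permutation test, p = 0.0619). In lists of equal length the numbers were 17 and 17 in MEF, 13 and 9 at DAY3, 13 and 15 at DAY6, 15 and 14 at DAY9, and 13 and 6 in ESC, with 70.7% between stages (exact permutation test, p = 0.352).

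**Figure D4:**
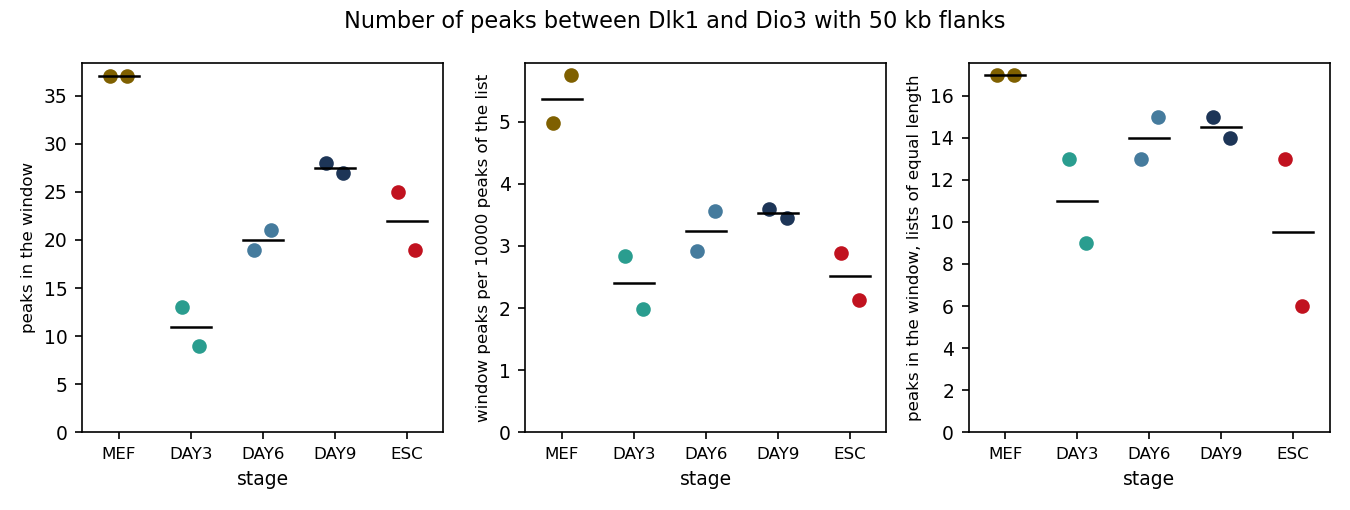
Peaks in the cluster by stage, as the number listed, per 10000 peaks of the list, and in lists cut to equal length; points are libraries and lines are stage means. Both MEF libraries lie above all others in each panel, by 37 against at most 28 in the number listed and 17 against at most 15 in lists of equal length.

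Of the 12 elements that both ESC libraries shared, 3 had a peak in each MEF library (25.0%), 5 in each DAY3 library (41.7%), 6 and 8 in the DAY6 libraries (50.0% and 66.7%) and 8 in each DAY9 library (66.7%). The share rose by 41.7 percentage points from MEF to DAY9 (Jonckheere-Terpstra test for ordered groups, two-sided and exact over 180 assignments, p = 0.0222). Over the 58799 such elements of the atlas the shares were 41.4% and 34.7% in MEF and 63.6% and 63.8% at DAY9. The rise missed the threshold without either MEF library (exact permutation test, p = 0.0667 each) and without ESC replicate 1, where it was 22.2 points (exact permutation test, p = 0.0667). Of the 20 elements that both MEF libraries shared, 5 and 4 had a peak at DAY3 (25% and 20%), 4 in each DAY6 and DAY9 library (20%), and 3 and 4 in ESC (15% and 20%). Most MEF elements of the cluster were thus not listed at DAY3, the stage with the shortest lists, nor at the later stages with longer ones. The further change to ESC, -5.00 points, did not pass the test (exact permutation test, p = 0.133). Over the 46089 such elements of the atlas the shares lay between 45.5% and 48.6%, and the difference between cluster and atlas was not tested.

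**Figure D5:**
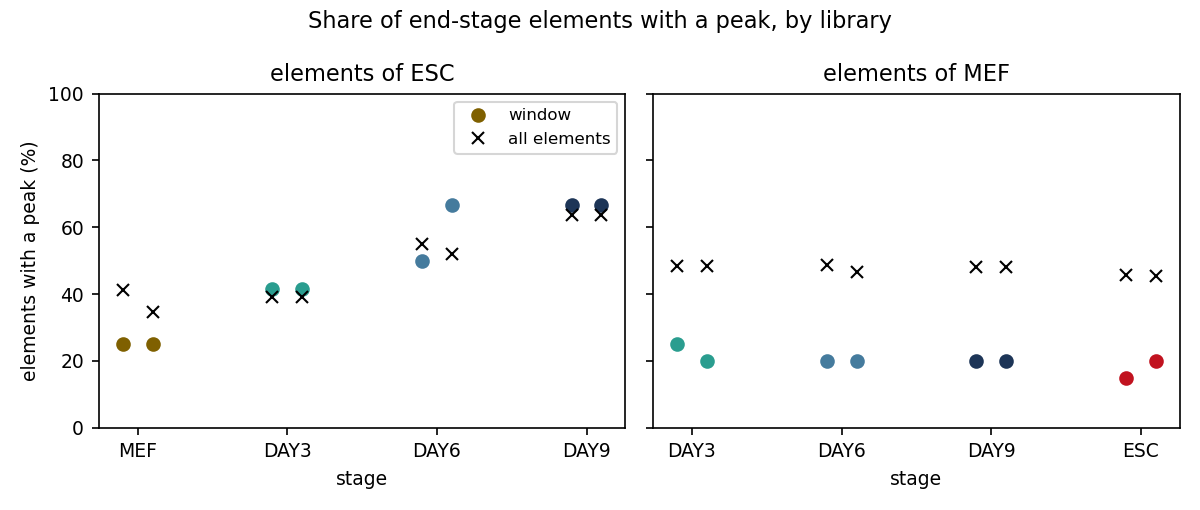
Share of the elements of ESC (left) and of MEF (right) with a peak in each library of the other stages, in percent; filled points are the cluster (12 and 20 elements), crosses all elements of the atlas. In the cluster the ESC elements go from 25.0% in MEF to 66.7% at DAY9, and the MEF elements stay between 15.0% and 25.0%.

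An element was called gained when both libraries of the later stage and neither of the earlier one had a peak, and lost in the reverse case; with 2 libraries on each side no test can pass, so counts are set beside the atlas. From MEF to DAY3, 4 of the 94 were gained (4.26%, atlas 5.43%) and 15 lost (16%, atlas 10.4%). From DAY3 to DAY6, 6 were gained (6.38%, atlas 5.29%) and 0 lost (atlas 1.50%), and from DAY6 to DAY9, 3 were gained (3.19%, atlas 5.39%) and 0 lost (atlas 0.956%). Across the whole course, DAY9 against MEF had 16 gained (17.0%, atlas 16.8%) and 16 lost (17.0%, atlas 11.0%). ESC against DAY9 had 4 gained (4.26%, atlas 9.10%) and 12 lost (12.8%, atlas 9.24%), the Meg3 start and the element 19.5 kb into Meg3 among the lost. ESC against MEF had 9 gained (9.57%, atlas 15.9%) and 16 lost (17.0%, atlas 11.1%). Gained shares were thus near the atlas for DAY9 against MEF. Without ESC replicate 2, 13 elements were gained against DAY9 and 20 against MEF. Without MEF replicate 1, 32 were lost at DAY9 and 33 in ESC. With 1 library of a stage left out, the rule for that stage is looser, so higher counts follow from the rule itself. Atlas shares under the looser rule are not given here.

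Genes beside the cluster were mostly open throughout. Of 8 matched neighbours, 5 had a start peak in all 10 libraries (27.8% of all genes did), 1 (Slc25a47) had none, and among the 5 was Yy1, a zinc finger transcription factor, with folds from 6.67 to 12.5. Begain, the gene next to Dlk1, had a peak in 9 libraries, with 2.79 in MEF replicate 2, none in MEF replicate 1, and 4.14 to 8.02 elsewhere. Wdr25 and Wars shared 1 element and cannot be told apart. Genes whose products set or keep imprints were open in nearly all libraries: 12 of 14 had a start peak in all 10. Zfp57, a zinc finger protein that protects imprints, ranged from 4.70 to 10.0, and Dnmt3a, a DNA methyltransferase, from 4.26 to 9.13. Tet1, a dioxygenase that oxidises methylated DNA, was missing in DAY3 replicate 2 alone, and Dppa3, which protects imprints in the early embryo, was listed only in DAY9 replicate 1 at 4.08 and ESC replicate 1 at 4.05 within 1 kb, and in 8 libraries within 2.5 kb.

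Genes whose start peaks were most like those of Meg3 were ranked by the mean absolute difference of log2 fold over the 10 libraries, a missing peak taken as a fold of 1. They were Zbtb4 (0.11), Gm23303 (0.16), Rcc2 (0.18), Mmp28 (0.21) and Src (0.22), all listed in the same 8 libraries. For Dlk1 they were Npff (0.10), Xlr3b (0.12), Car14 (0.16), Gm6361 (0.17) and Pmp2 (0.17). None of the 10 lies on chromosome 12.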

How the data were processed

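The authors deposited 1 peak list per library, called per library and not on pooled replicates, with 10 columns and no header. Bowtie2 2.3.2, deepTools 2.3.6, MACS2 2.1.1 and mm10 are named in the submitters' processing notes, without their roles; settings, duplicate handling and transposase shift are not given in the sources used here. The fold, a linear ratio of summit to background, the −log10 p-value and the score are the authors' deposited values, and folds of different lists are set side by side as description because depth differs. No listed −log10 p was under 5.00. Peak names have gaps, so some called peaks are missing from the lists, for a reason not given in the sources used here.

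The members and gene lists were chosen with earlier results of these data known. Lists were merged into an atlas; 1 bp of overlap placed a peak in an element, and the highest fold was used. Elements at a member's start (1 kb), those between Dlk1 and Meg3 or inside Meg3 shared by both libraries of a stage, and the 5 others of highest fold were named. Summit pileups were recovered from fold and p for at least 99.9969% of peaks (−log10 p up to 300, tolerance 0.01) and gave the smallest listed folds at typical background and the noise ratio, the squared difference of pileups between 100 and 200 over that expected from counting; pairs under 2 were averaged. Replicate numbers did not pair the samples: correlations of deviations lay between -0.0095 and 0.022 over 10 pairs. As a check of the code, simulated lists were made as copies of the DAY3 replicate 1 list (45766 peaks), with peaks dropped at random and shifted slightly. ESC against MEF, 177 of 200 gained and 176 of 200 lost elements were found, beside 97 and 99 other calls. These numbers follow mainly from the share of peaks dropped. The real lists differ more from each other, so the accuracy of the real calls was not tested. RefSeq tables (GRCm38.p6) gave genes, promoters and microRNAs; promoters replaced the planned element sequences and motif background, since no genome was used here. Of the 10 neighbours, B830012L14Rik and Mico1 were unmatched. Rtl1 has no promoter entry there, so a peak near either gene end counted, as for other genes without an entry. Python 3.11.15, numpy 2.4.6, pandas 2.3.3, scipy 1.17.1 and matplotlib 3.10.9 were used.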

Additional observations from a re-analysis of the deposited data

How the results depend on the processing

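Test thresholds were 0.05. The difference in peaks of the cluster between stages was lost by exact permutation tests in lists of equal length (70.7%, p = 0.352; ESC then had the lowest mean, below DAY3) and in the strongest 50% of each list (60.9%, p = 0.419). Per 10000 peaks, the share passed the threshold (exact permutation tests) with flanks of 100 kb (96.1%, p = 0.0190), with 10 separate libraries (90.6%, p = 0.0212) and with the replicate number as a block (90.6%, p = 0.0417); the replicate block changed no other call. With peaks required to cover 50% of an element, and exact tests, the rise of ESC elements was 33.3 points (p = 0.05) and the change of MEF elements reversed to 2.63 points (p = 0.733); the cause was not tested. With fewer peaks, the cluster held 47 elements in lists of equal length and 33 in the strongest 50%, against 94 in the full lists. Counts fell with these totals, which does not show that shares fell, and atlas shares under these settings are not given here. DAY9 against MEF had 8 gained and 7 lost under both. ESC against DAY9 had 0 gained under both, and 6 and 5 lost. ESC against MEF had 3 gained under both, and 8 and 7 lost. MEF alone numbered 6 and 7, and reprogramming days alone 6 and 4. Leaving out each library in turn gave, by exact permutation tests, 95.0% to 99.7% for peaks (p = 0.00952 to 0.0571, over the threshold without either MEF library), 90.8% to 95.1% per 10000 (p = 0.0476 to 0.2), 22.2 to 41.7 points for ESC elements (p = 0.0167 to 0.0667, missed also without DAY6 replicate 1) and -7.5 to -2.5 points for MEF elements (p = 0.1 to 0.617). Counts ranged from 16 to 19 gained and 16 to 32 lost for DAY9 against MEF, 4 to 13 gained and 12 to 15 lost for ESC against DAY9, and 9 to 20 gained and 16 to 33 lost for ESC against MEF. MEF alone ranged from 15 to 29 and reprogramming days alone from 10 to 13. A stage with a library left out was judged by its single remaining library, so higher counts follow from this looser rule. The weak element of Dlk1 was in no list's strongest 50%, and an effect of depth on it was not tested.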

Other observations

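Other imprinted genes served as a comparison for the cluster. Of 16 such genes, 9 had a start peak in both libraries of MEF (33.0% of all genes did) and 14 in those of ESC (38.1%), and 8 had one in all 10 (27.8%). Kcnq1ot1, a noncoding RNA of another imprinted cluster, ranged from a fold of 8.60 to 14.6. H19, a maternally expressed noncoding RNA, was listed in MEF replicate 1 at 4.60, in both DAY6 libraries at 3.14 and 5.56 and in DAY9 replicate 1 at 3.63, and in no ESC library (within 1 kb; in 6 libraries within 2.5 kb). Nnat, a paternally expressed gene, was listed within 1 kb on reprogramming days alone, in 1 library each of DAY3 and DAY6 (2.67 and 2.98) and in both DAY9 libraries (2.48 and 3.51), and within 2.5 kb in 9 libraries. Magel2 was listed in MEF replicate 1 at 4.18, at DAY9 at 3.36 and 3.22 and in ESC at 8.17 and 6.54.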
